A study of Mus musculus with 22 samples.

Results

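The 10 genes described here encode enzymes that cut the matrix of cartilage and the proteins that hold those enzymes back: the matrix metalloproteinases Mmp2, Mmp3, Mmp13 and Mmp14, the aggrecanase family members Adamts1, Adamts4 and Adamts5, and the tissue inhibitors Timp1, Timp2 and Timp3. They were chosen by exact match of the gene symbol in the deposited tables. All 10 were found among 34866 gene identifiers in the tables of cultured chondrocytes and among 23911 in the table of cartilage tissue. All 10 passed the filter on low counts in every comparison.

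Messenger RNA was measured in 22 mouse samples in 6 groups. In the conditional knockout (cKO), labelled Prrx1-Cre;Dnmt1 flox/flox for the cultures and cKO for the tissue, Cre recombinase removes Dnmt1, the DNA methyltransferase that maintains methylation marks when DNA is copied. The Prrx1 driver is active in early limb mesenchyme, so deletion is not limited to chondrocytes. Controls were labelled Dnmt1 flox or flox, with no Cre named. Primary chondrocytes came from knee articular cartilage of mice at postnatal day 3 to 5. At day 0 there were 3 control and 3 cKO cultures with no treatment named, and at day 3 there were 4 control and 4 cKO cultures treated for 3 days with BMP2, a bone morphogenetic protein that drives chondrocyte differentiation, at a labelled 100 ng/µl. The tissue was cartilage of mice at postnatal day 5, digested with collagenase, from 4 control and 4 cKO samples; replicates 1 and 2 of each genotype were labelled male, and 3 and 4 female. The cultures carried no sex label. No label says whether samples of a group came from separate animals, litters or cultures, so p-values measure the spread between these samples, part of which may be technical.

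Matrix metalloproteinases and ADAMTS enzymes are zinc proteases, secreted or held at the cell surface, that are made as inactive precursors. Collagenases open the triple helix of type II collagen, aggrecanases cut the core protein of aggrecan, and tissue inhibitors of metalloproteinases (TIMPs) occupy the active site of these enzymes. In growing cartilage this machinery clears matrix around hypertrophic chondrocytes ahead of bone formation, and in osteoarthritis the same enzymes erode the joint surface.

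Day 0 libraries held 41749327 to 51741478 counts each, day 3 libraries 14434197 to 18918714, and cartilage libraries 1100198 to 1888896. Dnmt1 itself was lower in cKO in all 3 settings, by log2 differences of -2.44 ± 0.07 (SE), -1.41 ± 0.31 and -1.66 ± 0.20 (edgeR adjusted p = 1.62e-08, 0.00625 and 6.34e-05). The summed level of 9 chondrocyte markers, Col2a1 and Acan among them, was lower in every cKO library than in every control library of its setting. At day 3 it was 84890 to 105200 CPM in controls and 1117 to 16250 CPM in cKO, with cKO replicate 4 the lowest (CPM, counts set to the same total in every library). That library also stood apart across genes: its chi-square per degree of freedom against the other cKO libraries was 123.9 to 138.4, against 7.42 to 10.9 among those others. Results at day 3 that change without it are given with and without it. Day, BMP2 treatment, count table and depth changed together between day 0 and day 3 and cannot be told apart. The 4 control cartilage libraries were in library pool 1 and the 4 cKO ones in pool 2, so genotype and pool cannot be told apart there.

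Promoter sequences were found in RefSeq (build GRCm38.p6) for 7 of the 10 genes: Mmp3, Mmp13, Mmp14, Adamts1, Timp1, Timp2 and Timp3. Those of the 4 proteases are printed as examples. Each is the 250 bases before the annotated start, read 5′ to 3′ on the gene's own strand, with capitals for 2 motifs: TGANTCA, bound by AP-1 (Fos and Jun proteins), and TGTGGT or its reverse complement ACCACA, bound by RUNX factors. The 2 motifs do not overlap in any of them. Mmp3 is on the plus strand at chr9:7445572-7445821, Mmp13 on the plus strand at chr9:7272264-7272513, Mmp14 on the plus strand at chr14:54431348-54431597 and Adamts1 on the minus strand at chr16:85803114-85803363.
Mmp3: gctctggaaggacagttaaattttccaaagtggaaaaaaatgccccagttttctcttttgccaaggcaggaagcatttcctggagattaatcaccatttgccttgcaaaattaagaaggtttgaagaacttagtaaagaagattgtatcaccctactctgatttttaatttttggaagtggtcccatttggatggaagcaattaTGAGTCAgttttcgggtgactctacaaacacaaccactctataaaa
Mmp13: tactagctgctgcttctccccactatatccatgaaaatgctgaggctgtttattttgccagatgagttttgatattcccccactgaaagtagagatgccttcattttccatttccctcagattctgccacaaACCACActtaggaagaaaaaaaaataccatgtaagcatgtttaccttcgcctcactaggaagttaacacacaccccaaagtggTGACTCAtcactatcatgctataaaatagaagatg
Mmp14: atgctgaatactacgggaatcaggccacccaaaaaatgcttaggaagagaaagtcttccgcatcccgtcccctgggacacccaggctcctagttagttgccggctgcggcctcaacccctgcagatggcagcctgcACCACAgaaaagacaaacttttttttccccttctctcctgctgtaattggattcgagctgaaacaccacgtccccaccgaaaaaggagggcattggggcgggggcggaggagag
Adamts1: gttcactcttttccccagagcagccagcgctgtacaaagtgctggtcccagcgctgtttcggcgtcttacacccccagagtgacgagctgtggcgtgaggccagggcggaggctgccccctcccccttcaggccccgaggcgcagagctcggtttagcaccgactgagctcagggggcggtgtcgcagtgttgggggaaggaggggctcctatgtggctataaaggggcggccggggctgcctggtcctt

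Both AP-1 matches lay close to the start, from -46 to -40 in Mmp3 and from -35 to -29 in Mmp13, counting the base before the start as -1. A match was present in 7.81% of the 32817 promoters of 300 bases (250 before and 50 after the start) in the same RefSeq table, searched on both strands. The RUNX match lay from -118 to -113 in Mmp13 and from -114 to -109 in Mmp14, and 16.76% of all promoters held one. Mmp13 held both motifs, as did 1.42% of all promoters. TATAAA on the gene's own strand was found in Mmp3, Mmp13 and Adamts1 and in 8.32% of all promoters. The 300 bases held 1 CpG in Mmp3 and 1 in Mmp13, against 8 in Timp1, 10 in Mmp14, 18 in Adamts1, 24 in Timp3 and 25 in Timp2; the median of all promoters was 7. CpG is the dinucleotide that DNMT1 methylates, and no methylation was measured in these files. A match to a motif is a description of the letters and shows no binding.

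**Figure D1:**
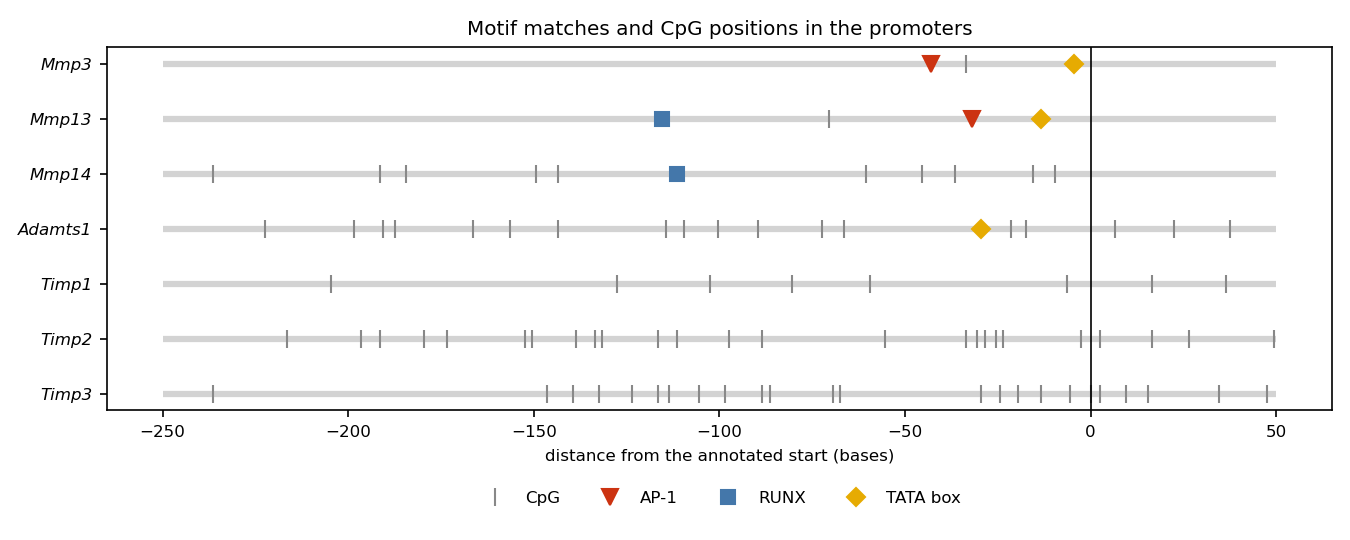
Positions of motif matches and CpG dinucleotides in the 7 promoters found, against distance from the annotated start in bases. Red triangles mark AP-1, blue squares RUNX, yellow diamonds TATAAA and grey ticks CpG; Mmp3 and Mmp13 have 1 CpG each, and Timp2 has 25.

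Most of the 10 genes differed between genotypes in culture. At day 0, 8 of 10 passed an adjusted p under 0.05 in edgeR's quasi-likelihood test, 6 higher in cKO and 2 lower, while 64.5% of all 15530 genes tested passed (33.0% higher, 31.6% lower). At day 3, 9 of 10 passed, 8 higher and 1 lower, against 48.1% of 13924 genes (25.5% higher, 22.6% lower); without cKO replicate 4 the counts were again 8 and 1, against 55.1%. In cartilage 2 of 10 passed, both lower, against 6.19% of 8793 genes (3.15% higher, 3.04% lower). The median log2 difference of the 10 genes was 0.42 at day 0, 1.16 at day 3 and -0.35 in cartilage, beside medians of all tested genes of 0.01, 0.01 and 0.01. With so many genes called in the cultures, a call by itself does not set these genes apart. Control and cKO libraries did not overlap for 8, 8 and 2 of the 10 genes, against 70.4%, 47.9% and 13.5% of all tested genes. In bulk samples, fewer cells of a type and less RNA per cell cannot be told apart.

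**Figure D2:**
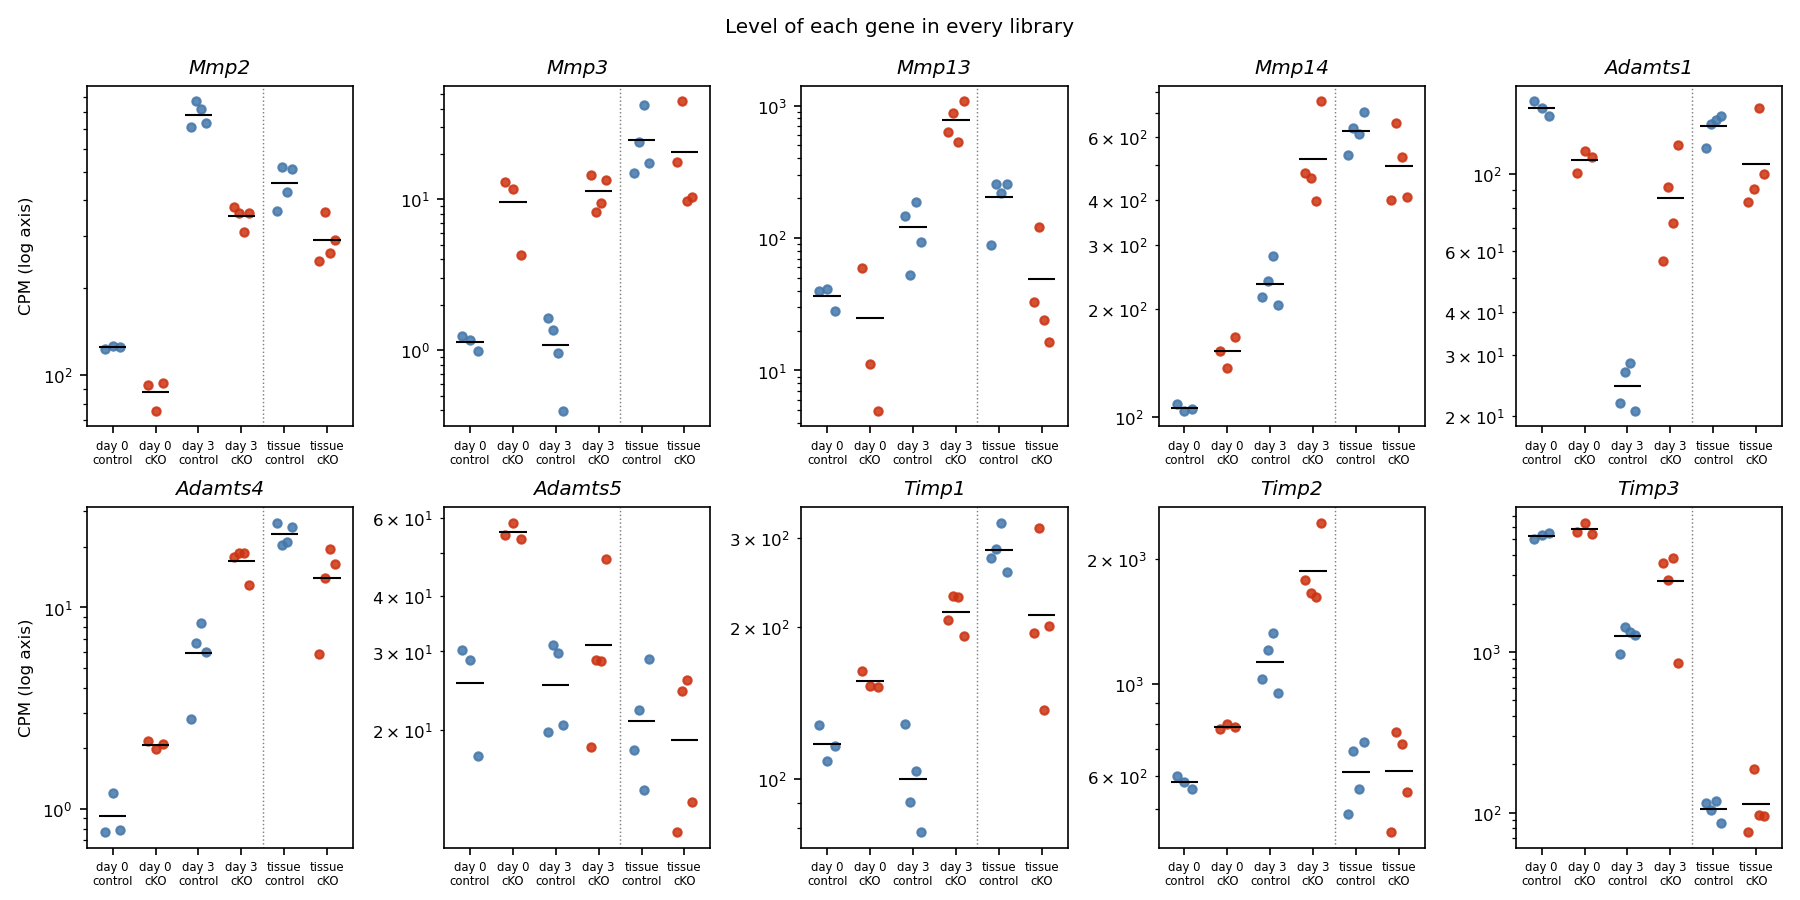
Level of each gene in every library, in CPM on a log axis, for the 6 groups; blue points are control and red points cKO libraries, and black bars are group means. Cultures and tissue were scaled separately, so levels are not compared across the dotted line. Mmp13 at day 3 ran from 52.9 to 188 CPM in controls and from 532 to 1073 CPM in cKO.

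Mmp13 (chr9:7272514-7283331, plus strand, GRCm38), the main collagenase of hypertrophic cartilage, was higher in cKO at day 3 and lower in cKO in the tissue. Day 0 controls had 39.5, 40.9 and 28.3 CPM and day 0 cKO cultures 59.1, 11.2 and 4.95 CPM. The cKO cultures lay on both sides of the controls, replicate 1 above and the other two below, and the log2 difference of -0.55 ± 0.69 (SE) missed the threshold (edgeR adjusted p = 0.511). Without cKO replicate 1 the difference was -2.19 and passed (edgeR adjusted p = 4.01e-04). At day 3 the control values were 146, 52.9, 188 and 92.9 CPM and the cKO values 626, 876, 532 and 1073 CPM. Every cKO culture was above every control, and the log2 difference was 2.71 ± 0.41, a 6.55-fold higher level (edgeR adjusted p = 8.80e-04). In cartilage the controls had 87.8, 257, 218 and 255 CPM and the cKO samples 32.8, 121.6, 24.1 and 16.4 CPM. Here cKO was 4.50-fold lower (log2 -2.17 ± 0.46, edgeR adjusted p = 0.00925), although cKO replicate 2 was above control replicate 1. The call was lost without cKO replicate 3 (log2 -1.91, adjusted p = 0.0531) or cKO replicate 4 (log2 -1.83, adjusted p = 0.0636), both female.

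By sex, the difference in Mmp13 was -3.56 ± 0.27 between the 2 female cKO and 2 female control samples (edgeR adjusted p = 6.27e-09) and -1.16 ± 0.53 between the males (adjusted p = 0.378). The test of the difference between the sexes gave -2.39 with an unadjusted p of 0.00529 and an adjusted p of 0.875. With the filter on low counts, none of the 10 genes passed this test after adjustment in edgeR or in DESeq2. Of all genes, 0.0114% passed in edgeR. Before adjustment 2 of the 10, Mmp3 and Mmp13, had a p under 0.05 in edgeR, a threshold for which no share of all genes is given. With no filter on low counts both passed in edgeR, Mmp13 at -2.45 (adjusted p = 5.08e-08) and Mmp3 at -2.19 (adjusted p = 0.00894). Their log2 values hardly moved from -2.39 and -2.14, while the calls by sex over all genes went from 1 to 33. The outcome of this test, with 2 samples per group, thus depends on the filter and settles no difference by sex. Sums of markers of other cells were also compared between genotypes in the tissue, and they did not all go the same way. The sum of 9 osteoclast markers, Mmp9 included, was 126.1 to 460.8 CPM in control and 59.6 to 119.5 CPM in cKO cartilage, with Calcr, the calcitonin receptor, not listed in that table. The sum of 5 hypertrophic markers, Col10a1 and Ihh among them, was 780 to 1751 CPM in control and 163.7 to 1473 CPM in cKO cartilage. That of 7 osteoblast markers was 28040 to 56170 and 13420 to 33610 CPM. Col1a1 alone, 1 of the 7, was 27970 to 56080 and 13390 to 33590 CPM, so the osteoblast sum mostly reports that gene. At day 3 the hypertrophic sum was 351.8 to 654.7 CPM in control and 3442 to 4080 CPM in cKO cultures, but its 5 members differed in direction. Spp1, which osteoblasts also express, had means of 267.4 and 3054 CPM and Alpl 46.4 and 334 CPM, while Ihh had 8.26 and 1.1 CPM and Panx3 184.5 and 35.4 CPM, in control and cKO. The osteoblast sum at day 3 was 3684 to 5066 CPM in control and 6802 to 8704 CPM in cKO. Col1a1 alone was 3609 to 4994 and 6460 to 8552 CPM there. The part of these markers in the result on Mmp13 was not tested.

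Mmp3 (chr9:7445822-7455975, plus strand), stromelysin 1, cuts proteoglycans and activates other metalloproteinases; it lies 162.5 kb from Mmp13 on chromosome 9. At day 0 it had 1.25, 1.16 and 0.993 CPM in controls and 13.0, 11.7 and 4.27 CPM in cKO. At day 3 it had 1.65, 1.36, 0.961 and 0.396 CPM in controls and 14.5, 8.25, 9.44 and 13.6 CPM in cKO. No cKO culture overlapped a control on either day. The log2 differences were 3.07 ± 0.40 at day 0 and 3.40 ± 0.38 at day 3, or 8.42-fold and 10.6-fold higher in cKO (edgeR adjusted p = 1.23e-04 and 2.01e-04). In cartilage, where the controls had 15.0, 23.9, 42.2 and 17.5 CPM and the cKO samples 17.6, 44.6, 9.81 and 10.3 CPM, the genotypes overlapped and the log2 difference was -0.26 ± 0.42 (edgeR adjusted p = 0.760). The tissue difference was 0.68 ± 0.42 between males and -1.48 ± 0.42 between females (adjusted p = 0.529 and 0.0582), and the test between the sexes had an unadjusted p of 0.00800 and an adjusted p of 0.875.

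Mmp2 (chr8:92827291-92853420, plus strand), a gelatinase that cuts denatured collagen and type IV collagen, was lower in cKO in all 3 settings. Controls had 123.2, 126.2 and 125.2 CPM at day 0 and cKO cultures 92.3, 75.5 and 94.2 CPM, a log2 difference of -0.52 ± 0.07 (edgeR adjusted p = 1.88e-04). At day 3 controls had 712, 871, 823 and 734 CPM and cKO cultures 378, 360.4, 312 and 361 CPM, a log2 difference of -1.14 ± 0.10 (edgeR adjusted p = 7.41e-05). In the tissue the values were 367, 520.5, 427 and 510.2 CPM in control and 247, 364, 264 and 292 CPM in cKO, a log2 difference of -0.65 ± 0.16 (edgeR adjusted p = 0.0243). The groups did not overlap in any of the 3 settings. The tissue call was lost when control replicate 2 or 4, or cKO replicate 1, 3 or 4, was left out (log2 -0.66 to -0.57, adjusted p = 0.0623 to 0.0968), and with scaling by library totals alone (-0.59, adjusted p = 0.0612).

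Mmp14 (chr14:54431612-54445364, plus strand) encodes a membrane-bound metalloproteinase, MT1-MMP, that activates the precursor of MMP2. It was 104.0 to 108.6 CPM in control and 136.7 to 167 CPM in cKO cultures at day 0, and 205 to 279 against 397 to 752 CPM at day 3, with no overlap on either day. The log2 differences were 0.52 ± 0.06 and 1.17 ± 0.21 (edgeR adjusted p = 7.88e-05 and 0.00219). Mmp14 was thus higher and Mmp2 lower in the same cKO cultures. In the tissue Mmp14 ran from 534 to 702 CPM in control and from 401 to 654 CPM in cKO, and its log2 difference of -0.32 ± 0.17 missed the threshold (edgeR adjusted p = 0.279).

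Among the aggrecanases, Adamts4 (chr1:171250421-171260637, plus strand), an inducible enzyme, was low at day 0, with 0.765, 1.20 and 0.786 CPM in controls and 2.19, 1.98 and 2.10 CPM in cKO. At day 3 it had 2.81, 6.68, 8.41 and 6.001 CPM in controls and 17.8, 18.6, 18.6 and 12.9 CPM in cKO. The cKO cultures were above all controls on both days, with log2 differences of 1.17 ± 0.20 and 1.51 ± 0.29 (edgeR adjusted p = 7.32e-04 and 0.00287). In cartilage every cKO sample, at 5.88 to 19.6 CPM, was below every control, at 20.5 to 26.3 CPM, yet the log2 difference of -0.76 ± 0.27 missed the threshold (edgeR adjusted p = 0.111).

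Adamts5 (chr16:85856173-85901828, minus strand), the main aggrecanase of mouse joint cartilage, was higher in cKO at day 0, with 54.9, 58.3 and 53.7 CPM against 30.2, 28.7 and 17.5 CPM in controls (log2 1.12 ± 0.17, edgeR adjusted p = 2.86e-04). At day 3 the genotypes overlapped, at 18.3 to 48.4 CPM in cKO and 19.7 to 31.0 CPM in controls (log2 0.32 ± 0.29, edgeR adjusted p = 0.406). The highest of these was cKO replicate 4; without it the log2 difference was -0.01 ± 0.21 (adjusted p = 0.979). In cartilage it ran from 14.7 to 28.8 CPM in control and from 11.8 to 25.9 CPM in cKO (log2 -0.18 ± 0.29, adjusted p = 0.747).

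Adamts1 (chr16:85793827-85803113, minus strand), which cuts versican as well as aggrecan and lies 53.1 kb from Adamts5, differed between genotypes in opposite directions on the 2 days. At day 0 it had 162, 156 and 147 CPM in controls and 100.6, 116 and 112 CPM in cKO. At day 3 it had 21.9, 26.8, 28.4 and 20.7 CPM in controls and 56.2, 91.6, 72.5 and 121.7 CPM in cKO. So all cKO cultures were below all controls at day 0 and above all controls at day 3. The log2 differences were -0.50 ± 0.06 and 1.82 ± 0.24 (edgeR adjusted p = 4.59e-05 and 4.46e-04). A single fit of all 14 cultures lost the day 0 call (-0.50, adjusted p = 0.0739). In cartilage Adamts1 had 119 to 148 CPM in control and 83.1 to 155 CPM in cKO (log2 -0.38 ± 0.15, adjusted p = 0.168), and it passed without cKO replicate 3, the highest cKO sample (-0.56, adjusted p = 0.0214).

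The secreted inhibitors Timp1 and Timp2 were higher in cKO cultures on both days. Timp1 (chrX:20870166-20874735, plus strand), a broad inhibitor of secreted metalloproteinases, had 128.0, 108.8 and 116 CPM in day 0 controls and 164, 153 and 152 CPM in cKO. At day 3 it had 128.7, 90.4, 103.8 and 78.5 CPM in controls and 207, 231, 229 and 193 CPM in cKO. Its groups did not overlap on either day, and its log2 differences were 0.41 ± 0.06 and 1.11 ± 0.15 (edgeR adjusted p = 2.02e-04 and 4.51e-04). Timp2 (chr11:118301069-118355740, minus strand), which inhibits MMP2 and also takes part in its activation by MT1-MMP, was 560 to 600 CPM in controls and 778 to 800 CPM in cKO at day 0. At day 3 it was 953 to 1323 and 1616 to 2437 CPM. The log2 differences in Timp2 were 0.44 ± 0.04 and 0.75 ± 0.18 (edgeR adjusted p = 1.17e-05 and 0.00823). In cartilage neither passed: the log2 difference was -0.45 ± 0.19 for Timp1 (adjusted p = 0.169) and 0.01 ± 0.18 for Timp2 (adjusted p = 0.985). Timp1 passed in the tissue without cKO replicate 2, its highest cKO sample at 314 CPM (-0.67, adjusted p = 0.0200).

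Timp3 (chr10:86300372-86349506, plus strand), the inhibitor that binds to the matrix and blocks aggrecanases, was the highest of the 10 genes per kb of exon at day 0. Untreated controls had 5060, 5315 and 5480 CPM and untreated cKO cultures 5562, 6333 and 5412 CPM, with overlap (log2 0.12 ± 0.08, edgeR adjusted p = 0.222). At day 3 controls had 966, 1433, 1331 and 1267 CPM and cKO cultures 3555, 2787, 3853 and 851 CPM. Replicates 1 to 3 of cKO were above all controls and replicate 4 below all of them. The log2 difference of 1.15 ± 0.40 barely passed (edgeR adjusted p = 0.0405). It passed without cKO replicate 4 (1.44 ± 0.16, adjusted p = 7.02e-05) and was lost when any other single library was left out (0.95 to 1.22, adjusted p = 0.0722 to 0.1011). In cartilage Timp3 had a mean of 105.8 ± 14.5 (SD, n = 4) CPM in control and 113.9 ± 49.8 CPM in cKO (log2 0.10 ± 0.22, adjusted p = 0.823). The deposited estimated counts gave it higher tissue levels, 352 ± 39.6 and 435.5 ± 129.4 CPM, and no call either (0.30 ± 0.17, adjusted p = 0.324). Timp3 shares 1733 exonic bases with Syn3 on the opposite strand, a gene with mean levels of 0.864 to 3.91 CPM in the 6 groups. Whether counting used strand is not given in the sources used here, so reads from the shared bases may be assigned to either gene.

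**Figure D3:**
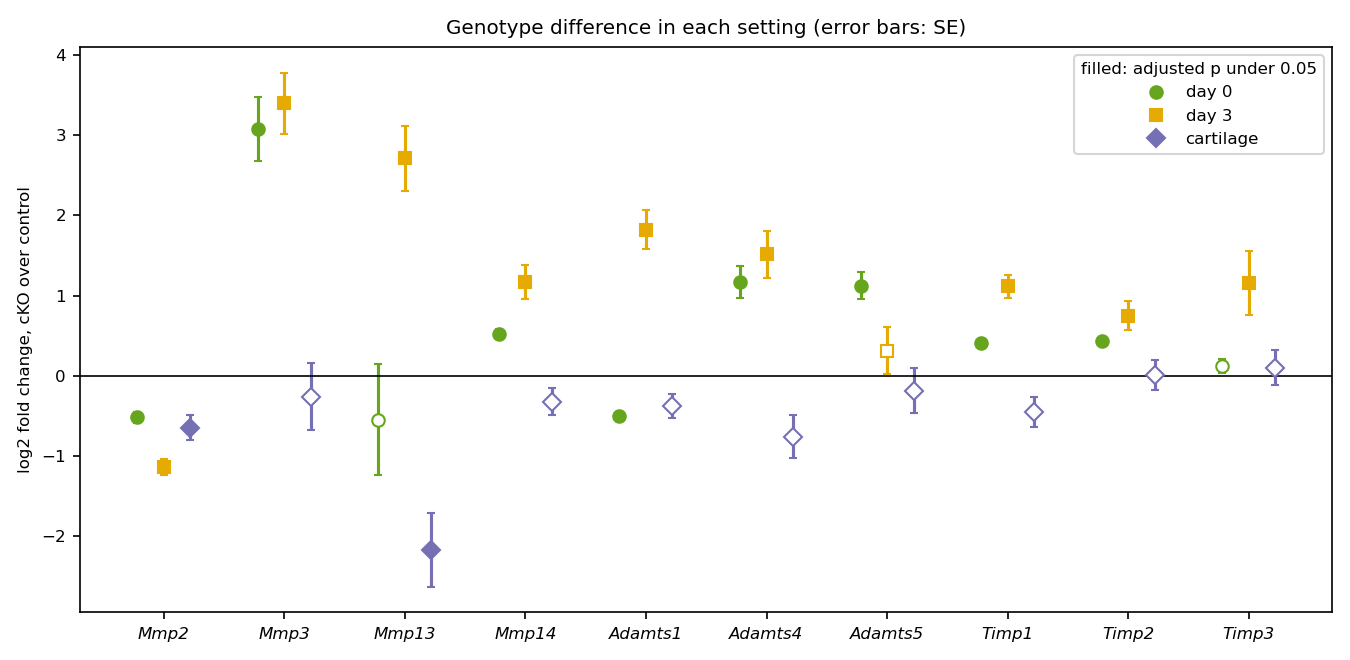
Log2 fold change of cKO over control for each gene at day 0 (circles), day 3 (squares) and in cartilage (diamonds), with the SE as bars and filled symbols for an adjusted p under 0.05. Mmp13 lies at 2.71 at day 3 and -2.17 in cartilage; Mmp2 lies below 0 in all 3.

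From day 0 to day 3, 7 of the 10 genes changed in controls, 5 rising and 2 falling, and 8 changed in cKO, 6 rising and 2 falling. The shares of all 14909 genes tested were 56.9% (28.1% higher, 28.8% lower) and 62.2% (32.4% higher, 29.8% lower). The libraries of the 2 days did not overlap for 7 and 8 of the 10 genes, against 64.0% and 62.5% of all genes. The median log2 change of the 10 genes was 0.48 in controls and 0.85 in cKO, beside 0.00 and 0.02 for all genes. These changes use the same libraries as the genotype differences above.

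Among the metalloproteinases, Mmp2 rose by a log2 change of 2.65 ± 0.11 (SE) in controls and 2.02 ± 0.10 in cKO (edgeR adjusted p = 3.73e-09 and 1.96e-08). Mmp14 rose by 1.15 ± 0.19 and 1.78 ± 0.19 (adjusted p = 1.74e-04 and 5.23e-06). Mmp13 rose by 4.96 ± 0.79 in cKO, a 31.0-fold change (edgeR adjusted p = 1.37e-04). In controls its log2 change was 1.73 ± 0.67 (adjusted p = 0.0429), with every day 3 culture above every day 0 culture. That control call was lost without any one of 9 libraries: the 3 day 0 controls, day 3 control replicate 1, 3 or 4, and day 3 cKO replicate 1, 2 or 3, which enter through the shared estimate of the spread (log2 1.43 to 1.83, adjusted p = 0.0511 to 0.128). Mmp3 passed in neither genotype, at -0.06 ± 0.46 and 0.25 ± 0.37 (adjusted p = 0.933 and 0.579), so its higher level in cKO was already present at day 0.

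Adamts4 rose in both genotypes, by 2.70 ± 0.31 and 3.02 ± 0.30 on the log2 scale (edgeR adjusted p = 1.19e-05 and 2.93e-06). Adamts1 fell by 2.66 ± 0.21 in controls (edgeR adjusted p = 4.16e-07). In cKO its log2 change was -0.36 ± 0.20 (adjusted p = 0.1298), and without day 3 cKO replicate 4 it passed at -0.58 ± 0.14 (adjusted p = 0.00283). Adamts5 had a log2 change of -0.01 ± 0.28 in controls (adjusted p = 0.988) and fell by 0.84 ± 0.28 in cKO (edgeR adjusted p = 0.0171).

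Of the inhibitors, Timp2 rose in both genotypes, by 0.96 ± 0.15 and 1.25 ± 0.15 (edgeR adjusted p = 1.13e-04 and 1.25e-05). Timp1 rose in cKO by 0.46 ± 0.13 (adjusted p = 0.00924) and changed by -0.23 ± 0.13 in controls, which missed the threshold (adjusted p = 0.157) and passed without day 3 control replicate 1 (-0.37, adjusted p = 0.00959). Timp3 fell by 2.08 ± 0.36 in controls and by 1.06 ± 0.35 in cKO (edgeR adjusted p = 2.79e-04 and 0.0185). The fall in cKO was lost without day 0 cKO replicate 2 (log2 -0.997, adjusted p = 0.0544) and in the fit of cKO cultures alone (-1.07, adjusted p = 0.0812).

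**Figure D4:**
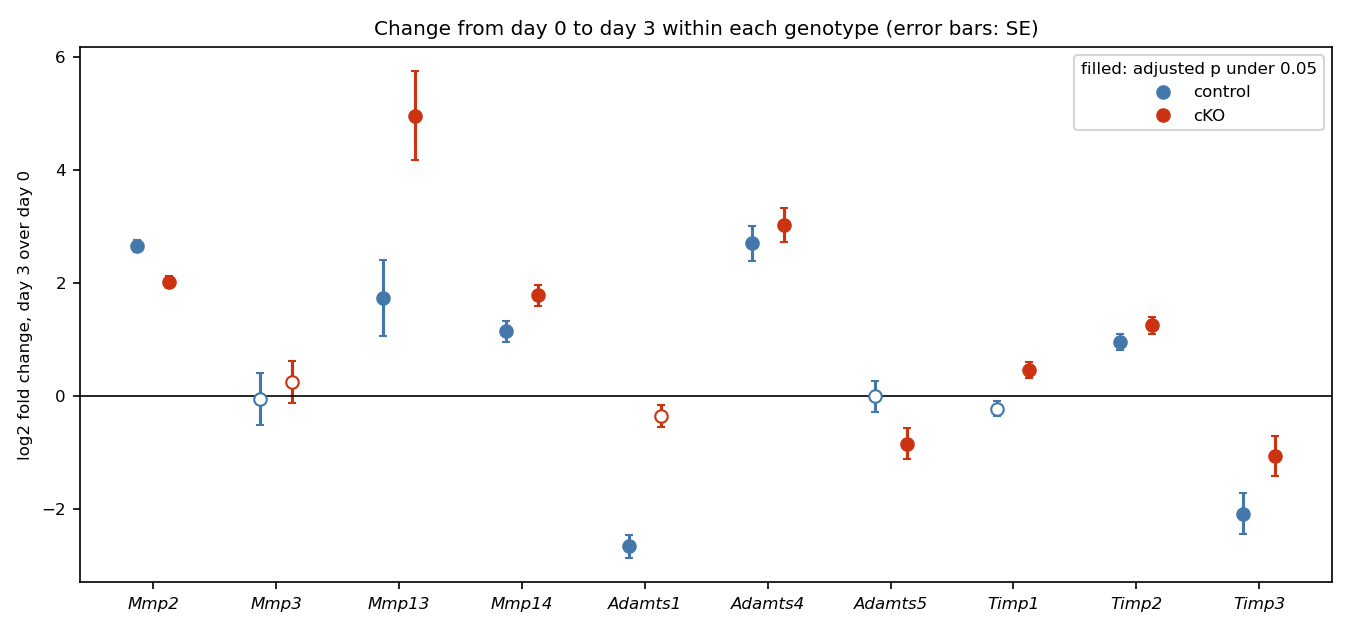
Log2 fold change from day 0 to day 3 in control (blue) and cKO (red) cultures, with the SE as bars and filled symbols for an adjusted p under 0.05. Adamts1 lies at -2.66 in control and -0.36 in cKO; Mmp13 lies at 1.73 and 4.96.

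The day change itself differed between genotypes for 4 of the 10 genes in an interaction test, 3 with a positive interaction and 1 with a negative one, against 16.8% of 14909 genes (9.94% higher, 6.89% lower). The interaction, cKO change minus control change on the log2 scale, was 3.23 ± 0.93 for Mmp13, 2.30 ± 0.29 for Adamts1, 0.69 ± 0.19 for Timp1 and -0.64 ± 0.14 for Mmp2 (edgeR adjusted p = 0.0313, 3.17e-04, 0.0252 and 0.00757). Without day 3 cKO replicate 4, Timp3 (1.32, adjusted p = 3.07e-04) and Adamts5 (-1.13, adjusted p = 0.0138) passed as well, making 6, against 27.3% of all genes. The call on Mmp13 was lost without any one of 7 libraries (each day 0 control, day 0 cKO replicate 2, day 3 control replicate 2 or 4, day 3 cKO replicate 2), with log2 values of 2.87 to 3.38. The call on Timp1 was lost without any one of 5 (day 0 control replicate 1 or 3, day 0 cKO replicate 2 or 3, day 3 control replicate 2), with values of 0.62 to 0.70. Those on Adamts1 and Mmp2 passed with each library left out in turn.

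Ordered by mean level over the 4 culture groups, Mmp2 ran from day 3 control down through day 3 cKO and day 0 control to day 0 cKO, with no overlap between neighbours. Mmp14, Adamts4 and Timp2 shared an order, from day 3 cKO through day 3 control and day 0 cKO to day 0 control, also with no overlap between neighbours. Mmp3 fell into 2 levels, both cKO groups above both control groups, with overlap within each level. Adamts1 was highest in day 0 control and lowest in day 3 control; its cKO groups lay between and overlapped each other. Mmp13 ran from day 3 cKO through day 3 control to the 2 day 0 groups, which overlapped. Timp1 ran from day 3 cKO through day 0 cKO to the 2 control groups, which overlapped. Timp3 had both day 0 groups above both day 3 groups, with overlap between genotypes on each day. Adamts5 was highest in day 0 cKO, and its other 3 groups overlapped as neighbours.

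Levels of different genes were compared per kb of exon, in cultures only, because the tissue libraries were made from the 3′ end. At day 0 Timp3 was first in both genotypes, at 649 ± 25.9 (SD, n = 3) CPM per kb in controls and 708 ± 60.7 in cKO. Adamts4 was last, at 0.191 ± 0.052 and 0.434 ± 0.022. At day 3 Timp2 was first, at 289 ± 43.1 (SD, n = 4) in controls and 480.5 ± 98.2 in cKO. Mmp2 was the highest protease in day 3 controls, at 233 ± 22.2 CPM per kb, and Mmp13 in day 3 cKO, at 290.5 ± 91.8. Mmp13 alone made up 6.03 to 19.0% of the summed CPM per kb of the 7 proteases in day 3 controls and 51.9 to 60.6% in day 3 cKO, with no overlap.

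The 7 proteases together held 9.16 to 10.1% of the summed CPM per kb of all 10 genes in day 0 controls and 6.76 to 9.10% in day 0 cKO. At day 3 they held 35.9 to 37.6% in controls. The share was 25.1 to 34.5% in cKO replicates 1 to 3, below every control, and 41.5% in cKO replicate 4, above every control. Timp3 made up 67.6 to 71.0% of the inhibitor sum in day 0 controls and 64.0 to 67.3% in day 0 cKO. At day 3 its share was 22.5 to 31.8% in controls, 33.3 to 41.3% in cKO replicates 1 to 3, and 11.0% in cKO replicate 4. These shares count mRNA and say nothing of enzyme activity.

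**Figure D5:**
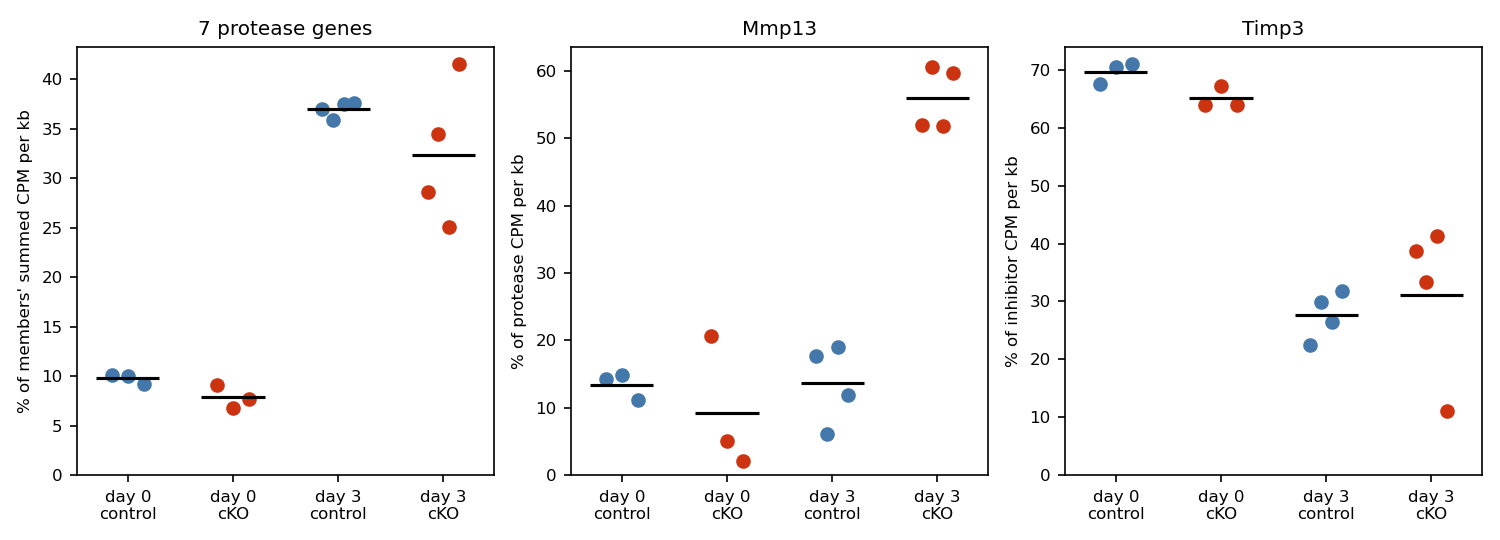
Shares of summed CPM per kb in each culture library: the 7 proteases among all 10 genes (left), Mmp13 among the proteases (middle) and Timp3 among the 3 inhibitors (right). Blue points are control and red points cKO libraries, black bars group means; Mmp13 makes up 51.9 to 60.6% of the protease sum in day 3 cKO.

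The genotype difference in the tissue was set against that in the cultures by an interaction in 1 fit over all 22 samples. Tissue minus day 3, 7 of the 10 genes passed, all with the lower value in tissue, against 19.4% of 15177 genes (8.28% higher, 11.1% lower). They were Mmp13 (-4.94), Mmp3 (-3.75), Adamts4 (-2.34), Adamts1 (-2.25), Timp1 (-1.62), Mmp14 (-1.55) and Timp2 (-0.80), on the log2 scale. Tissue minus day 0, 4 passed, again all lower: Mmp3 (-3.45), Adamts4 (-2.02), Timp1 (-0.93) and Mmp14 (-0.92), against 9.47% of genes (4.29% higher, 5.18% lower). Mmp2, lower in cKO in each setting, passed in neither. The call on Timp2 was lost in 5 and those on Mmp14 and Timp1 against day 0 in 11 and 4 of the 22 fits that left out 1 library. Without day 3 cKO replicate 4, Timp3 passed as well against day 3 (-1.40, adjusted p = 6.75e-04), making 8 against 20.7% of all genes. Adamts5 then passed against day 0 (-1.40, adjusted p = 0.0314), making 5 against 15.2%; with all libraries it was at -1.395 (adjusted p = 0.0817). Tissue and cultures also differed in library method, depth and pool, which cannot be told apart from the setting.

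Among 15 other MMP genes, 7 were higher and 2 lower in cKO of 11 tested at day 0, 4 and 2 of 8 at day 3, and 0 and 1 of 3 in cartilage, with median log2 differences of 1.15, 0.18 and -0.64 beside 0.01 for all genes in each setting. Of all genes tested, 33.0% were higher and 31.6% lower at day 0, 25.5% and 22.6% at day 3, and 3.15% and 3.04% in cartilage. These shares also stand beside the counts of each list that follows. A count near them does not set a list apart. At day 3 Mmp17, a membrane-anchored metalloproteinase, rose from a mean of 0.521 to 3.87 CPM (log2 2.89) and Mmp11, stromelysin 3, from 11.9 to 52.4 CPM (2.16), while Mmp28 fell from 17.7 to 7.58 CPM (-1.21) (edgeR adjusted p = 0.00195, 4.93e-05 and 5.30e-04). Mmp17 and Mmp28 had moved the same ways at day 0 (2.79 and -1.43). The 1 gene called in cartilage was Mmp9, the gelatinase of osteoclasts, at a mean of 156.7 CPM in control and 6.34 CPM in cKO (log2 -4.59, edgeR adjusted p = 5.12e-04). Mmp9 was at means of 0.221 to 0.495 CPM in the culture groups.

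Of 16 other ADAMTS genes, 2 were higher and 7 lower in cKO of 13 tested at day 0, and 2 and 4 of 12 at day 3, with medians of -0.33 and 0.13. None of 5 passed in cartilage in edgeR or DESeq2. There 3 had an unadjusted p under 0.05, a looser threshold for which no share of all genes is given. Adamts9, another aggrecan- and versican-cutting enzyme, was the most abundant of those named and fell on both days, from 215.5 to 61.1 CPM at day 0 (log2 -1.82, edgeR adjusted p = 1.68e-08) and from 170.3 to 92.2 CPM at day 3 (-0.88, adjusted p = 0.0361). Among 9 ADAM genes and further inhibitors, 5 were higher and 2 lower on each day, of 8 and 9 tested, with medians of 0.21 and 0.40. None of 6 passed in cartilage in edgeR or DESeq2. There 3 had an unadjusted p under 0.05, again with no share of all genes at that threshold. Reck, a membrane-anchored inhibitor of metalloproteinases, fell by 0.95 at day 0 and by 0.94 at day 3 (edgeR adjusted p = 1.47e-06 and 0.00114), unlike the 3 TIMPs, none of which was lower in cKO cultures.

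Of 11 genes for activation and clearance of these enzymes, 6 were higher in cKO on each day, and 3 and 1 lower, with medians of 0.34 and 0.46. Plat, tissue plasminogen activator, rose on both days (1.335 and 2.40), and Plaur, the urokinase receptor, by 3.12 at day 3. Furin, the protease that activates MT1-MMP and the ADAMTS enzymes, fell at day 0 (-0.78) and in cartilage (-0.46, edgeR adjusted p = 0.0466), where it was the 1 gene of 11 called; DESeq2 called 0 there.

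Of 8 substrate genes, 2 were higher and 6 lower in cKO at day 0, 4 and 3 at day 3, and 0 and 1 in cartilage, with medians of -0.77, 0.13 and -0.38. Acan, aggrecan, fell by 1.40 at day 0 and by 2.78 at day 3, Col2a1, type II collagen, by 1.26 and 3.13, and Comp by 1.70 and 2.37. Vcan, versican, rose by 0.57 and 1.30, and Fn1, fibronectin, by 0.37 and 1.16. Col10a1, the collagen of hypertrophic cartilage, fell in cartilage (-1.48 ± 0.38, edgeR adjusted p = 0.0321). Its call at day 3 (3.28 ± 1.13, adjusted p = 0.0402) rested on cKO replicate 4, at 1392 CPM; cKO replicates 1 to 3 had 56.1, 101.3 and 68.9 CPM and controls 24.7 to 77.9 CPM. Without that library the log2 difference in Col10a1 was 0.82 ± 0.36 (adjusted p = 0.0804), and that in Vcan was 0.81 (adjusted p = 0.0415).

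Of 17 transcription factors and regulators that act on these genes, 9 were higher and 4 lower at day 0, and 12 and 0 at day 3. Their median log2 difference at day 3 was 0.83 beside 0.01 for all genes. The shares of all genes were 33.0% higher and 31.6% lower at day 0, and 25.5% and 22.6% at day 3. Without day 3 cKO replicate 4, 12 of the 17 regulators were higher and 1 lower, while 55.1% of all genes passed. Leaving that library out gave 4 higher and 3 lower of 9 other MMP genes, 3 and 5 of 13 other ADAMTS genes, 5 and 2 of 9 ADAM genes and inhibitors, 6 and 1 of 11 genes of activation and clearance, and 3 and 3 of 8 substrates. The AP-1 members Fosl1, Junb and Fosl2 rose at day 3 by 3.08, 2.94 and 2.60 (edgeR adjusted p = 1.97e-05, 7.62e-06 and 1.18e-06), and at day 0 by 2.79, 1.21 and 0.99, whereas Fos fell at day 0 (-1.53). At day 3 Fos, Jun and Jund were higher in cKO too, by 1.435, 1.94 and 0.67 (edgeR adjusted p = 0.00729, 8.57e-05 and 0.00392). In cartilage 4 of 16 regulators passed, all lower, among them Epas1 (-1.20), Ets1 (-0.96) and Runx1 (-0.89) (edgeR adjusted p = 0.00452, 0.00517 and 0.00233). The AP-1 members Fos, Fosl2, Jun, Junb and Jund did not pass there, with log2 differences of -0.17 to 0.08.

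Markers of other cell types differed between genotypes in the cultures as well. The sum of 6 muscle markers, Myog and Des among them, was 0.396 to 1.14 CPM in control and 95.5 to 1220 CPM in cKO cultures at day 3, with replicate 4 the lowest cKO library. At day 0 it was 1.69 to 2.11 CPM in control and 27.8 to 38.7 CPM in cKO. The osteoblast sum, mostly Col1a1, was higher in cKO at day 3, as given beside Mmp13. At day 0 it was 1596 to 2826 CPM in control and 1188 to 1523 CPM in cKO. Col1a1 alone was 1567 to 2789 and 1172 to 1484 CPM at day 0. The sum of 5 macrophage markers was 2.54 to 3.32 and 4.50 to 5.76 CPM at day 0, and 4.80 to 7.22 and 8.44 to 17.5 CPM at day 3. The osteoclast sum was 165.8 to 170.8 and 76.8 to 91.6 CPM at day 0 and overlapped at day 3, at 111.3 to 139.3 and 97.1 to 361 CPM. Mmp9, 1 of its 9 markers, had day 0 means of 0.221 CPM in control and 0.495 CPM in cKO. Other markers of the list thus made up that sum and its lower level in cKO. The sum of 6 endothelial markers stayed at or below 3.94 CPM in all cultures, with Cdh5, Kdr and Emcn at 0 in every day 3 control, and Calcr was at 0 in every day 3 culture. The fibroblast sum of 6 markers was 448.0 to 451.6 CPM in control and 293.8 to 400.6 CPM in cKO at day 0. At day 3 it overlapped between genotypes, at 494.6 to 843.5 CPM in control and 346 to 718 CPM in cKO. The part of these cells in the differences above was not tested.

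The genes most alike in pattern were found by Pearson correlation of log2 CPM, standardised within each setting, over 22 samples and 8365 genes; the points share the genotype and library structure of the study, and no p is given. For Mmp13 they were Cemip (r = 0.914) and Alpl (0.896), for Mmp3 St3gal5 (0.927) and Errfi1 (0.924), and for Mmp14 Itga11 (0.969) and Rab31 (0.960). Mmp2 was most like Prrc1 (0.945) and Tdrd3 (0.941), Adamts1 like P4ha3 (0.893) and Col1a1 (0.874), and Adamts4 like Rhobtb1 (0.923) and St3gal2 (0.916). Timp1 was most like Spry2 (0.949) and Spp1 (0.941), and Timp2 like Basp1 (0.957) and Axl (0.951).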

How the data were processed

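Per the labels' protocols, culture libraries were made with a directional kit and cartilage libraries with BRB-seq, a barcoded oligo-dT method that reads the 3′ end. For the cultures the authors deposited tables of estimated counts, and for the cartilage both whole-number counts and estimated counts; estimated counts were rounded here before testing, and the whole-number counts are the main cartilage values. The submitters' processing notes list the build GRCm38 and, for cartilage, UMI-tools 1.1.1, Trim Galore 0.6.7, HISAT2 2.2.1, featureCounts 2.0.1 and DESeq2 1.34.0, with no role or order; the aligner and counter of the cultures are not given in the sources used here. Ribosomal RNA genes held 9.96 to 23.6% of the whole-number cartilage counts. Of the culture identifiers 34582 of 34866, and of the cartilage identifiers 23884 of 23911, matched GENCODE M21, the source of positions and exon lengths.

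Each comparison was fitted here over all genes with edgeR 4.0.16 in R 4.3.3 (filterByExpr with a minimum count of 10 and a minimum total of 15, TMM scaling, quasi-likelihood F test, Benjamini-Hochberg adjustment, threshold 0.05). Genotype within a day used that day's samples; day changes and their interaction used all 14 cultures; cartilage carried sex as a covariate. CPM were scaled over the 14 cultures together and over the 8 cartilage samples together. The scripts were tested on simulated data. Alternatives were RLE scaling, library totals alone, DESeq2 1.42.0, no expression filter, a replicate block, each replicate left out, other sample sets and the estimated cartilage counts. Likeness used log2 CPM with a pseudocount of 0.5. The named genes were the 10 members, up to 3 higher and 3 lower called genes of each list with the largest log2 difference, and the 2 genes most alike. Further AP-1 members and single markers were named where a contrast or a sum called for them. The members and lists were chosen with earlier results of these data known. Same-numbered control and cKO samples gave a mixed picture. Correlations of their deviations ran from -0.038 to 0.221 at day 0 and from -0.148 to -0.072 at day 3. In cartilage they ran from -0.071 to 0.26. Day 0 replicate 3 and cartilage replicates 1 and 2 correlated best with their own number, and the other replicates did not. Results on some listed genes are not reported here.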

Additional observations from a re-analysis of the deposited data

Results flagged for a closer look

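In groups of 4 samples, 40 combinations of gene and group were examined for a sample far from the others. Of these, 2 stood out, no more than chance alone gives at its rate of about 1 in 20. Mmp13 in cartilage control replicate 1, a male sample, was at 87.8 CPM, while the other 3 controls lay at 218 to 257 CPM. Adamts4 in day 3 cKO replicate 4 was at 12.9 CPM, while the other 3 lay at 17.8 to 18.6 CPM.

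The genotype difference changed between day 0 and day 3, by a test of the difference itself, for Mmp13 (3.23 on the log2 scale), Adamts1 (2.30), Timp1 (0.69) and Mmp2 (-0.64). Adamts1 was the gene of these whose libraries were separated by genotype in opposite directions on the 2 days.

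Between cartilage and day 3 cultures the genotype difference was lower in cartilage for Mmp3 (-3.75), Mmp13 (-4.94), Mmp14 (-1.55), Adamts1 (-2.25), Adamts4 (-2.34), Timp1 (-1.62) and Timp2 (-0.80). Between cartilage and day 0 cultures it was lower for Mmp3 (-3.45), Mmp14 (-0.92), Adamts4 (-2.02) and Timp1 (-0.93). Mmp13 passed the genotype test in opposite directions at day 3 and in cartilage.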

How the results depend on the processing

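No result on the 10 genes that passed its test changed sign under any alternative. Under settings other than leaving out a replicate, 543 of 560 results on single genes kept their side of the threshold, 9 lost a call and 8 gained one; with 1 replicate left out, 1094 kept it, 56 lost a call and 10 gained one. In cartilage, where 2 genes passed, library totals alone gave 1, no expression filter 4, males only 0 and females only 1; DESeq2 gave 2. The difference by sex, with 0 genes called, gave 2 with no expression filter (Mmp13 and Mmp3). With 1 library left out, the count of called genes ran from 8 to 9 at day 0, 8 to 9 at day 3, 0 to 3 in cartilage (0 without cKO replicate 4), 6 to 7 for the day change in controls, 7 to 9 in cKO, 2 to 6 for the interaction of genotype and day, 6 to 8 for cartilage against day 3, 2 to 5 against day 0 and 0 to 0 by sex.

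The replicate block gave 8 calls at day 0, 8 at day 3 (Timp3 lost, 0.99, adjusted p = 0.1175), 2 in cartilage, 4 for the interaction, 7 for cartilage against day 3 and 3 against day 0 (Mmp14 lost, -0.94). Over all genes the block called 9724 at day 0, 5391 at day 3 and 576 in cartilage, against 10023, 6693 and 544 without it. For cartilage against day 3 and day 0 it called 2382 and 986, against 2940 and 1437. For the 2 day changes the block within each day was not run, since it cannot bear on a change between days. A replicate block across days, chosen after seeing the data, gave 6 in controls (Mmp13 lost, 1.69, adjusted p = 0.0623), 8 in cKO and 4 for the interaction. Over all genes the block across days called 8241, 9011 and 2490, against 8476, 9274 and 2509 without it. The replicate numbers mark no shared animal or day in the labels.

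Over all genes, the calls in cartilage moved from 544 to 1044 with no filter, 357 with DESeq2, 194 in males, 290 in females and 362 without cKO replicate 4. The day 0 calls moved from 10023 to 6260 with all 14 cultures fitted together, those of the interaction from 2509 to 1554 with the block and to 4051 without day 3 cKO replicate 4, those of cartilage against day 0 from 1437 to 2303 without that library and to 946 without day 0 cKO replicate 3, and those by sex from 1 to 33 with no filter. Library totals alone changed the split of calls, from 5119 higher and 4904 lower to 6452 and 3695 at day 0, and from 277 and 267 to 289 and 156 in cartilage; it moved the median of all genes by up to 0.119 on the log2 scale. The cartilage depth of 1100198 to 1888896 counts limits Mmp3, Adamts4 and Adamts5 most, whose lowest tissue levels were 9.81, 5.88 and 11.8 CPM.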
